A study of Mus musculus with 4 samples.

Results

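Primitive endoderm is the extra-embryonic lineage that the inner cell mass forms beside the epiblast, and 9 of its regulators and markers were followed in mouse embryonic stem cells (mESCs): Gata4, Gata6, Sox7, Sox17, Pdgfra, Dab2, Hnf4a, Sparc and Cubn. They were chosen by symbol from a table of 37620 genes, where they hold 10 entries because Dab2 has a second identifier. Of the 9 genes, 8 had enough counts to be tested among 16264 genes, and Sox7 did not.

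RNA-seq was carried out on 2 libraries of WT_CTCF and 2 libraries of MUT_CTCF mESCs. CTCF is a zinc finger protein that shapes chromatin loops, and O-GlcNAc is a single sugar that cells attach to it. In both lines the tagged endogenous CTCF of CTCF-mAID mESCs was degraded with auxin and replaced by CTCF from a vector. The vector carried wild-type CTCF in WT_CTCF and CTCF changed at T668, so that O-GlcNAc cannot be attached there, in MUT_CTCF. The cells were grown on gelatin in medium with serum and the cytokine LIF, which holds mESCs undifferentiated. According to the study's text, a clone with exogenous CTCF near the endogenous level was taken for each line, so a difference between lines and a difference between clones cannot be told apart. The study calls the 2 libraries of a line biological replicates, and whether they were grown as separate cultures is not given in the labels. In bulk RNA, more cells of the lineage and more transcript per cell cannot be told apart either.

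In the blastocyst, cells of the inner cell mass take either the epiblast or the primitive endoderm path, and FGF4 from epiblast cells, read through FGF receptors and ERK, favours primitive endoderm. GATA6 acts at the head of that programme, and GATA4, SOX17, SOX7 and HNF4A follow it, while the receptor PDGFRA marks the lineage early. Its descendants, parietal and visceral endoderm, lay down basement membrane, for which SPARC is a secreted matrix protein, and take up protein from the maternal fluid through the receptor cubilin and the adaptor DAB2. Single mESCs in serum and LIF are known to drift towards and away from this state.

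Total counts ran from 40524694 to 40977464 per library, and a gene with 0 counts could still hold 3 counts by sampling, or between 0.0732 and 0.0740 CPM (counts scaled to a common library total), for counting error only. Values called counts are as deposited, and normalized counts are counts scaled by edgeR's TMM factors to the mean library, given as mean ± SD with n = 2. Fold changes are log2 values of MUT_CTCF over WT_CTCF of the quasi-likelihood test of edgeR, and p was adjusted by the Benjamini-Hochberg method over the 16264 tested genes. With 2 libraries a line, the smallest two-sided p of an exact permutation test is 0.333, and each p given here depends on edgeR's estimate of the spread over all genes. Counts of Ctcf, from which endogenous and vector transcripts cannot be told apart, lay between 18273 and 19233, with a log2 fold change of 0.044 (adjusted p = 0.499).

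None of the 8 tested genes passed an adjusted p under 0.05, against 3.17% of all tested genes, 1.56% as higher and 1.61% as lower. The smallest adjusted p among them was 0.0733, for Gata6. At the criterion of the study, a fold change above 2 and p under 0.05 before adjustment, none passed either, against 1.3% of all tested genes, 0.947% as higher and 0.357% as lower. Without the adjustment, 3 of the 8 had p under 0.05, Gata6 and Sox17 with higher and Sparc with lower values in MUT_CTCF, against 15.3% of all tested genes. Both MUT_CTCF libraries lay beyond both WT_CTCF libraries for 4 of the 8 genes, above them for Gata6, Sox17 and Hnf4a and below them for Sparc. This happened in 44.7% of all tested genes, 22.3% above and 22.3% below, so the share among the 8 is near the background. The log2 fold change was above 0 for 5 genes, against 50.8% of all tested genes, and below 0 for 3, with a median of 0.25 beside 0.0034 over all tested genes.

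**Figure D1:**
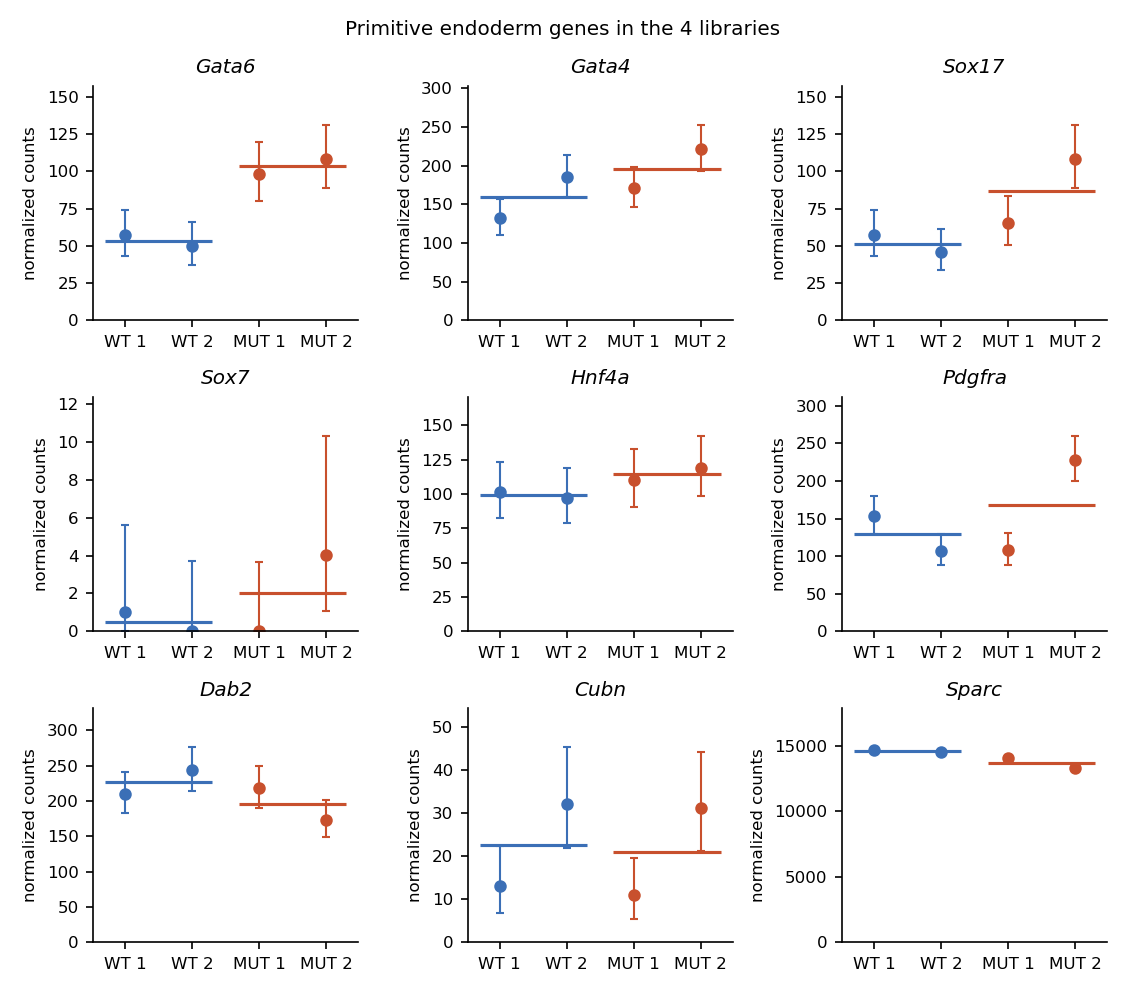
Normalized counts of the 9 genes in each library, with WT_CTCF in blue and MUT_CTCF in orange. Points are libraries, vertical bars are 95% Poisson intervals of the count, horizontal lines are means of 2 libraries, and each panel has its own axis from 0. Gata6 is the gene whose MUT_CTCF libraries, at 98.1 and 108.5 normalized counts, stand farthest above its WT_CTCF libraries, at 57.1 and 50.1, relative to their level.

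Between genes, levels can be compared only per length, as RPKM, the counts scaled by library total, as CPM is, and divided by the annotated exon length in kilobases. Sparc was far above the rest, with 105.7 ± 0.593 RPKM in WT_CTCF and 100.2 ± 3.99 in MUT_CTCF (SD, n = 2), a level higher than that of 96.4% of tested genes. All other genes were near or below 1 RPKM. Gata4 followed in both lines, at 0.991 ± 0.237 RPKM in WT_CTCF and 1.23 ± 0.221 in MUT_CTCF. Dab2 had 0.754 ± 0.0797 RPKM in WT_CTCF and 0.657 ± 0.107 in MUT_CTCF. Its place in the order is uncertain, since it shares 1374 exon bases with a second entry at 0 counts, and reads there may be missing while the bases are in its length. Hnf4a (0.482), Pdgfra (0.472), Gata6 (0.409) and Sox17 (0.399) made up a group in WT_CTCF in which each gene's range of libraries overlapped that of its neighbour in the order. In MUT_CTCF the order after Gata4, without Dab2, was Gata6 at 0.796 ± 0.0541 RPKM, Sox17 at 0.678 ± 0.236, Pdgfra at 0.614 ± 0.308 and Hnf4a at 0.560 ± 0.0279. Each of these overlapped the next in that order. Cubn lay lowest of the tested genes, with 0.0466 ± 0.0279 RPKM in WT_CTCF and 0.0438 ± 0.0297 in MUT_CTCF, above only 0.770% of tested genes. Apart from Sparc, no member stood above the 30.7 percentile of tested genes by RPKM. By the same measure the epiblast factors Nanog (631.7 RPKM in WT_CTCF), Zfp42 (445.7) and Pou5f1 (354.3) lay far above all 9 genes.

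**Figure D2:**
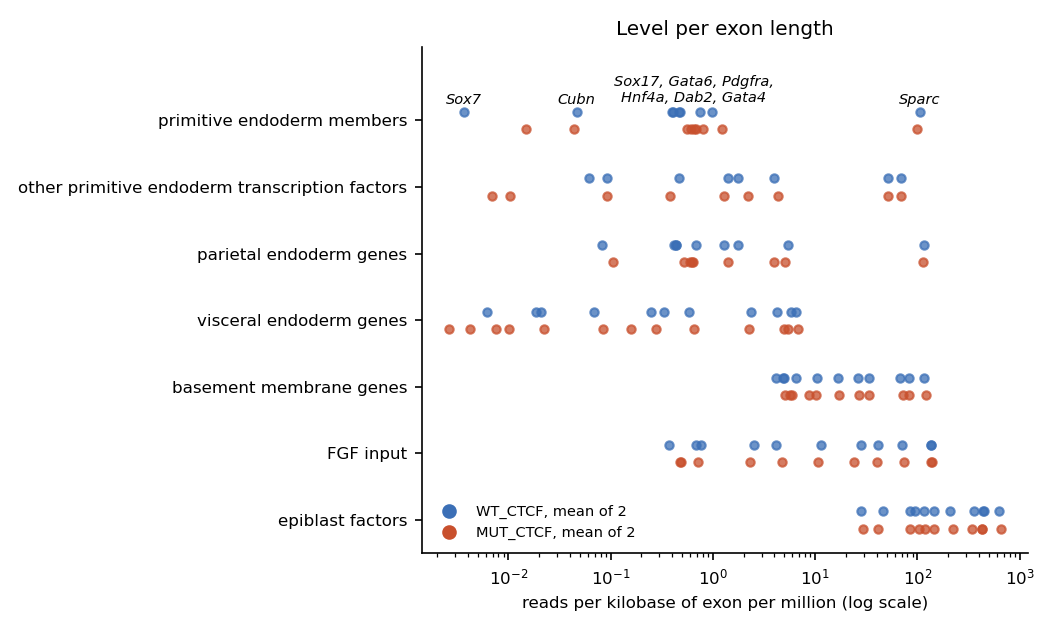
Level per exon length of the 9 genes and of 6 lists of related genes, as mean RPKM of 2 libraries on a log axis, with WT_CTCF above in blue and MUT_CTCF below in orange. Genes at 0 in a line are not drawn, and of the 9 genes only Sparc reaches the range of the basement membrane genes and the epiblast factors.

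Gata6 encodes the zinc finger factor that starts the primitive endoderm programme, and it lies on the plus strand of chromosome 18 (ENSMUSG00000005836). Its counts were 57 and 50 in WT_CTCF and 99 and 108 in MUT_CTCF. Both MUT_CTCF values were high, both WT_CTCF values were low, and the Poisson intervals of the lines, up to 74.0 normalized counts in WT_CTCF and from 79.8 in MUT_CTCF, did not meet. Such intervals cover counting error only, and for Gata4, Sox17, Pdgfra, Cubn and Sparc those of libraries of the same line did not meet either. The means of Gata6 were 53.6 ± 4.93 and 103.3 ± 7.33 normalized counts (SD, n = 2), which is 1.93-fold, just under the limit of 2 in the study's criterion. The log2 fold change was 0.95 (standard error, SE, 0.303, 95% interval 0.34 to 1.55, adjusted p = 0.0733 by edgeR). It stayed between 0.85 and 1.04 with any 1 library left out, and its adjusted p lay between 0.0561 and 0.508 over all settings tried. It exceeded 2-fold, and so met the study's criterion, in the fits that left out replicate 1 of either line. Of its 3194 exon bases, 58 are shared with 1010001N08Rik, a gene on the other strand that had 0 counts in all 4 libraries.

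Gata4, the related factor that acts with and after Gata6, lies on the minus strand of chromosome 14 (ENSMUSG00000021944, 63817759 to 63890529 in mm9). Its counts were 132 and 185 in WT_CTCF and 172 and 220 in MUT_CTCF. The groups overlapped, since MUT_CTCF replicate 1 was below WT_CTCF replicate 2. The means were 158.8 ± 37.6 and 195.8 ± 35.7 normalized counts, with a log2 fold change of 0.30 (SE 0.199, 95% interval -0.098 to 0.70, adjusted p = 0.515 by edgeR). That value was smallest when WT_CTCF replicate 1 (0.078) or MUT_CTCF replicate 2 (0.10) was left out, and largest when MUT_CTCF replicate 1 (0.48) or WT_CTCF replicate 2 (0.56) was. Of 3 other tested GATA genes, which serve blood and trophoblast cells among others, none passed, with a median log2 fold change of -0.13. Gata2 had 0.16 (adjusted p = 0.822 by edgeR) and Gata1 had -0.23 (adjusted p = 0.850 by edgeR).

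Sox17, an SRY-box factor of the F group needed for endoderm, lies on the minus strand of chromosome 1 (ENSMUSG00000025902, 4481009 to 4486494). It had 57 and 46 counts in WT_CTCF and 66 and 108 in MUT_CTCF. Both MUT_CTCF libraries were above both WT_CTCF libraries, but MUT_CTCF replicate 1 was closer to WT_CTCF than to the other MUT_CTCF library. The means were 51.6 ± 7.77 and 87.0 ± 30.5 normalized counts, with a log2 fold change of 0.75 (SE 0.332, 95% interval 0.085 to 1.42, adjusted p = 0.259 by edgeR). It was 0.34 when MUT_CTCF replicate 2 was left out and 1.07 when MUT_CTCF replicate 1 was, where it also passed the study's criterion. Sox7, its relative on the plus strand of chromosome 14 (ENSMUSG00000063060, 64562511 to 64569569), had 1 and 0 counts in WT_CTCF and 0 and 4 in MUT_CTCF. The Poisson interval of the highest Sox7 library overlapped that of each other library. Sox7 was not tested, and no difference between the lines is read from these counts. Sox18, the remaining F group gene, which is known from blood and lymph vessels, had 33 and 20 counts in WT_CTCF and 45 and 40 in MUT_CTCF. Both MUT_CTCF libraries of Sox18 were the higher ones, with a log2 fold change of 0.67 (SE 0.487, adjusted p = 0.570 by edgeR), which was 0.36 without WT_CTCF replicate 2.

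Hnf4a encodes a nuclear receptor of visceral endoderm and liver and lies on the plus strand of chromosome 2 (ENSMUSG00000017950, 163332544 to 163398646). Its counts of 101 and 97 in WT_CTCF and 111 and 118 in MUT_CTCF were the closest within each line among the tested genes other than Sparc. Both MUT_CTCF libraries were above both WT_CTCF libraries, at 114.3 ± 6.03 against 99.2 ± 2.78 normalized counts. The Poisson intervals of all 4 libraries overlapped, and the log2 fold change was 0.20 (SE 0.252, 95% interval -0.30 to 0.71, adjusted p = 0.786 by edgeR). Of 7 other tested transcription factors of the lineage, none passed, with a median log2 fold change of -0.0059. Hhex, a homeobox factor of the anterior visceral endoderm, had 0.12 (adjusted p = 0.659 by edgeR). Foxa2, which is needed in visceral endoderm and definitive endoderm, had 5 and 7 counts in WT_CTCF and 2 and 0 in MUT_CTCF and was not tested.

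Promoter sequence was at hand for 5 of the 9 genes, Cubn, Hnf4a, Pdgfra, Sparc and Dab2, as 7 RefSeq windows of assembly GRCm38.p6 that run from 250 bases before a transcript start to 50 bases after it. The windows were searched on both strands for GATA letters (AGATAA or TGATAA, also with a final G), which 29.8% of all 32851 windows hold, and for SOX letters (ATTGT), which 31.0% hold. Hnf4a and Dab2 are shown because their first windows hold GATA letters, and Pdgfra, another low gene, because its window holds neither motif. The GATA and SOX letters do not overlap in these windows, capitals mark the letters found, and each sequence runs 5′ to 3′ on the plus strand.

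Hnf4a, chr2:163506607-163506906: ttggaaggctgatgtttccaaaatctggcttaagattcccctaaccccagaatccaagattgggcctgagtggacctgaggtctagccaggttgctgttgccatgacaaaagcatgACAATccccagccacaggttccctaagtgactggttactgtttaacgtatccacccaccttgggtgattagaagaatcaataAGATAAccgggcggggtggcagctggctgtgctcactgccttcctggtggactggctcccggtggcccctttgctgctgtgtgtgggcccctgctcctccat

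Dab2, chr15:6299539-6299838: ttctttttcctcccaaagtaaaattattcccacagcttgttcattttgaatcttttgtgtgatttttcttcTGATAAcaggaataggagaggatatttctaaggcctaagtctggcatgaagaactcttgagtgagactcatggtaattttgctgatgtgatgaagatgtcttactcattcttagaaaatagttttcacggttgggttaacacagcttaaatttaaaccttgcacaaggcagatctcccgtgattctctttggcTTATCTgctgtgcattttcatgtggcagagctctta

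Pdgfra, chr5:75152001-75152300: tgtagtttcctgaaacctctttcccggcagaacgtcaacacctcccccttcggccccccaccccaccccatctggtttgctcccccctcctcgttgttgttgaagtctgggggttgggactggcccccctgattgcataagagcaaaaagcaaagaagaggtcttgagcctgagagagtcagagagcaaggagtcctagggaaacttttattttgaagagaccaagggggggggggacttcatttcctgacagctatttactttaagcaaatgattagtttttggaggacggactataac

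In the Hnf4a window, SOX letters start, on the opposite strand, at -134 and GATA letters at -52 from the transcript start. In the Dab2 window, GATA letters start at -179 and, on the opposite strand, at 15. The other windows of Hnf4a and Dab2, and those of Sparc and Cubn, held neither motif. A match is a description of letters and not of a bound site.

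Pdgfra encodes the receptor for PDGF-A that primitive endoderm cells carry early, and it lies on the plus strand of chromosome 5 (ENSMUSG00000029231, 75548316 to 75594229). It had 153 and 107 counts in WT_CTCF and 109 and 227 in MUT_CTCF. MUT_CTCF replicate 2 was high, the 2 middle values came from different lines, and the groups overlapped. Within MUT_CTCF the libraries differed 2.11-fold, and their Poisson intervals, 88.8 to 130.4 and 199.5 to 259.9 normalized counts, did not meet. Within WT_CTCF they differed 1.43-fold, and the intervals, 130.0 to 179.6 and 87.9 to 129.7, narrowly did not meet either. The means were 130.2 ± 32.5 and 168.1 ± 84.9 normalized counts, with a log2 fold change of 0.37 (SE 0.238, 95% interval -0.11 to 0.84, adjusted p = 0.504 by edgeR). Without MUT_CTCF replicate 2 it was -0.27, and without MUT_CTCF replicate 1 it was 0.81. Of the 4 other tested PDGF genes none passed, and Pdgfd had 0 counts in all libraries. Pdgfb, a ligand used mainly in vessels, had 164 and 164 counts in WT_CTCF and 223 and 212 in MUT_CTCF, a log2 fold change of 0.40 (SE 0.184, adjusted p = 0.279 by edgeR). Pdgfa, the ligand of this receptor, had -0.17 (adjusted p = 0.109 by edgeR) and shares exon bases with a gene on the other strand.

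Dab2 encodes an adaptor of endocytosis and lies on the plus strand of chromosome 15 (ENSMUSG00000022150, 6249788 to 6390712). Its counts were 210 and 243 in WT_CTCF and 220 and 173 in MUT_CTCF. Here MUT_CTCF replicate 2 was the low library and the groups overlapped. The means were 227.0 ± 23.5 and 196.0 ± 31.3 normalized counts, with a log2 fold change of -0.21 (SE 0.178, 95% interval -0.57 to 0.14, adjusted p = 0.644 by edgeR). It was -0.059 when MUT_CTCF replicate 2 was left out and -0.38 when MUT_CTCF replicate 1 was. The second entry of Dab2 (ENSMUSG00000079102) shares 1374 of its 1376 exon bases with the first and had 0 counts in every library, so reads in the shared bases may have been left out of both entries.

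Cubn, the receptor cubilin of the visceral endoderm surface, lies on the minus strand of chromosome 2 (ENSMUSG00000026726, 13197965 to 13413551). It had 13 and 32 counts in WT_CTCF and 11 and 31 in MUT_CTCF, so that replicate 1 of each line was low, replicate 2 of each line was high, and the lines could not be separated. The log2 fold change was -0.10 (SE 0.622, 95% interval -1.35 to 1.15, adjusted p = 0.968 by edgeR). It was positive when WT_CTCF replicate 2 (0.68) or MUT_CTCF replicate 1 (0.46) was left out, and negative when WT_CTCF replicate 1 (-0.61) or MUT_CTCF replicate 2 (-1.04) was. The interval holds changes of more than 2-fold in either direction, and 161 of the 11815 exon bases are shared with Gm13270, which had 0 counts. Of 6 tested partners of cubilin and endosomal genes, 1 fell and none rose. This was Lrpap1, a chaperone of the LDL receptor family to which cubilin's partner megalin belongs, at 7988 ± 31.2 normalized counts in WT_CTCF and 6928 ± 15.3 in MUT_CTCF, a log2 fold change of -0.21 (SE 0.0366, adjusted p = 0.000168 by edgeR). Lrpap1 did not pass without either MUT_CTCF library (adjusted p = 0.363 and 0.381, all settings tried gave 4.3e-06 to 0.381), fits in which 0% of all genes passed.

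Sparc, a secreted protein that binds collagen and is abundant in parietal endoderm, lies on the minus strand of chromosome 11 (ENSMUSG00000018593, 55208002 to 55233582). It had 14639 and 14469 counts in WT_CTCF and 14183 and 13284 in MUT_CTCF. Both MUT_CTCF libraries were below both WT_CTCF libraries, with the lowest value in MUT_CTCF replicate 2. The ratio of the lines was 0.940, a log2 fold change of -0.090 (SE 0.031, 95% interval -0.15 to -0.027, adjusted p = 0.108 by edgeR). It was -0.054 when MUT_CTCF replicate 2 was left out and -0.13 when MUT_CTCF replicate 1 was. With at least 13284 counts per library, Sparc had the narrowest interval of the 8 tested genes. That interval holds no change of 2-fold in either direction, and neither do the wider ones of Gata4, Pdgfra, Dab2 and Hnf4a.

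**Figure D3:**
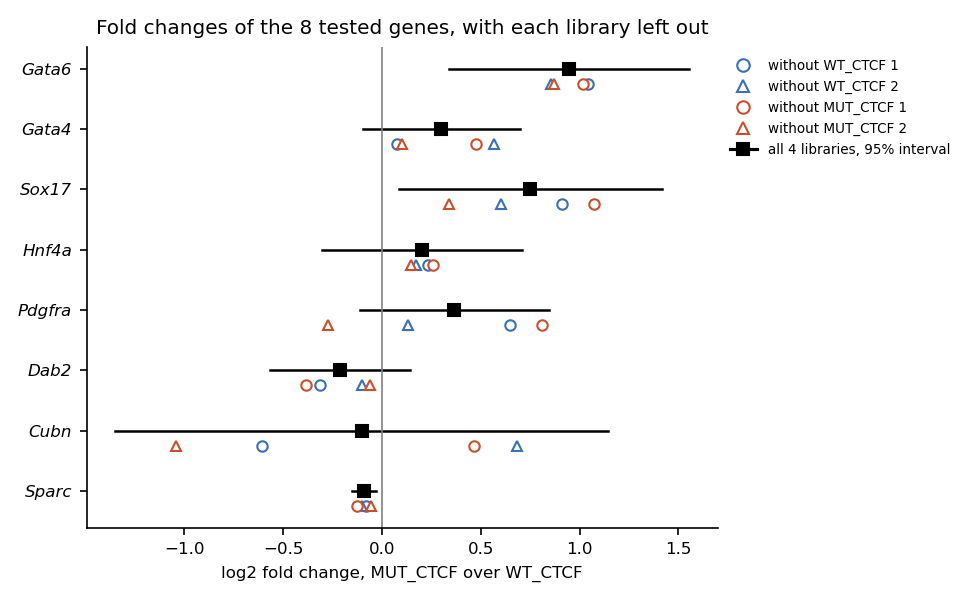
Log2 fold change of MUT_CTCF over WT_CTCF for the 8 tested genes. Squares are the fit on 4 libraries with its 95% interval, open symbols the fit with 1 library left out, and the vertical line marks no change. Gata6 stays between 0.85 and 1.04, whereas Pdgfra and Cubn have values on both sides of 0.

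Library by library, MUT_CTCF replicate 2 had the highest normalized count for 6 of the 9 genes, Gata4, Gata6, Sox7, Sox17, Pdgfra and Hnf4a, and the lowest for 2, Dab2 and Sparc. How often each library was highest or lowest over all tested genes was not counted, and Sox7, with 4 counts in MUT_CTCF replicate 2, was not tested. MUT_CTCF replicate 1 was highest for none of the 9 and lowest for Cubn. WT_CTCF replicate 2 was lowest for 4 of the 9, Gata6, Sox17, Pdgfra and Hnf4a, and shared the lowest value of Sox7, 0 counts, with MUT_CTCF replicate 1. Relative to the mean of the 4 libraries, the log2 level in MUT_CTCF replicate 2 was 0.47 for Gata6, 0.32 for Gata4 and 0.61 for Pdgfra, while in MUT_CTCF replicate 1 these levels were 0.32, -0.056 and -0.47. Gata6 and Hnf4a lay above the 4-library mean in both MUT_CTCF libraries. A library effect and a difference between cultures of either line cannot be told apart with 2 libraries.

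**Figure D4:**
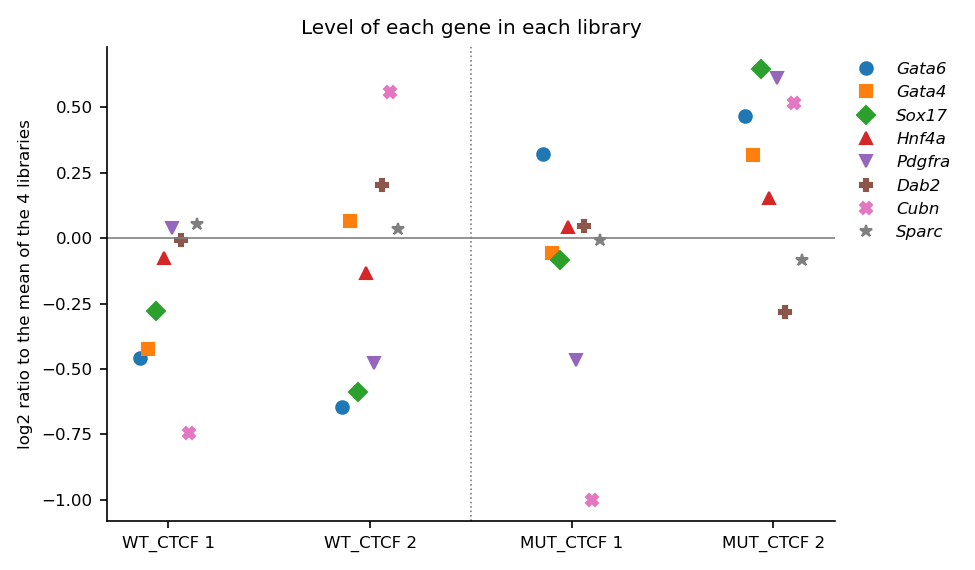
Log2 ratio of each tested gene to its own mean over the 4 libraries, in normalized counts, for WT_CTCF replicates on the left of the dotted line and MUT_CTCF replicates on the right. Most symbols in MUT_CTCF replicate 2 lie above 0, and only Dab2 and Sparc lie below it, while MUT_CTCF replicate 1 is spread on both sides of 0.

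Around the 9 genes, 82 further genes of the lineage, its inputs and its alternative fate were looked up in 10 lists, and 69 had enough counts to be tested. At an adjusted p under 0.05, 4 of the 69 were higher and 2 were lower, which is 8.7% beside 3.17% of all tested genes. The lists were chosen with earlier results of these data known, so the difference between these shares is not read as an excess in the lineage. The median log2 fold change of the 69 was 0.018. Without MUT_CTCF replicate 1 or without MUT_CTCF replicate 2, none of the 6 passed, and 0% of all genes did. Without a filter on low counts none of the 6 passed either, where 0.122% of all genes did. At the study's criterion, 1 of the 69 was higher and 1 was lower, Krt19 and Ihh.

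Among 11 basement membrane genes, which make the matrix on which SPARC acts, 2 rose, none fell, and the median log2 fold change was 0.042. The genes that rose, P4ha1 and P4ha2, encode prolyl 4-hydroxylase subunits that modify collagen chains and are not themselves part of the membrane. P4ha2 had 1081 and 1026 counts in WT_CTCF and 1476 and 1521 in MUT_CTCF, a log2 fold change of 0.50 (SE 0.0764, adjusted p = 7.89e-06 by edgeR). P4ha1 had 1140 and 1055 counts in WT_CTCF and 1477 and 1458 in MUT_CTCF, a log2 fold change of 0.41 (SE 0.0762, adjusted p = 0.000297 by edgeR). For both genes the MUT_CTCF libraries were high and the groups did not overlap. The laminin and collagen IV genes of the list did not pass.

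Of 9 parietal endoderm genes, 1 rose, none fell, and the median log2 fold change was 0.31. Krt19, a keratin of parietal endoderm that many other epithelia share, had 124 and 141 counts in WT_CTCF and 270 and 323 in MUT_CTCF. Both MUT_CTCF libraries of Krt19 were high, at 296.1 ± 40.2 against 132.8 ± 12.1 normalized counts, a log2 fold change of 1.16 (SE 0.179, adjusted p = 1.21e-05 by edgeR), and between 1.01 and 1.29 with 1 library left out. Of 15 visceral endoderm genes, 6 could be tested and none passed, with a median of -0.015. Apoa4 and Cer1 had 0 counts in all libraries. Ihh, a hedgehog ligand of visceral endoderm, had 40 and 27 counts in WT_CTCF and 3 and 14 in MUT_CTCF, a log2 fold change of -1.97 that met the study's criterion (SE 0.670, adjusted p = 0.102 by edgeR), and that passed in edgeR's exact test (adjusted p = 0.0495, all settings tried gave 0.0495 to 0.563). Apom, an apolipoprotein, had 0.22 (adjusted p = 0.645 by edgeR).

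For the FGF input, none of 11 genes rose and 1 fell, with a median log2 fold change of -0.022. Spry2, a feedback inhibitor that FGF and ERK signalling induces, went from 2410 ± 130 to 2039 ± 46.9 normalized counts, a log2 fold change of -0.24 (SE 0.0605, adjusted p = 0.0130 by edgeR). It did not pass without WT_CTCF replicate 2 (-0.19, adjusted p = 0.268 by edgeR, all settings tried gave 0.0036 to 0.491). Of 11 epiblast factors, the opposing fate, 1 rose and none fell, with a median of -0.022. Sox2, a core pluripotency factor, had a log2 fold change of 0.095 (adjusted p = 0.0358 by edgeR), and it passed neither in edgeR's exact test nor with any 1 library left out.

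**Figure D5:**
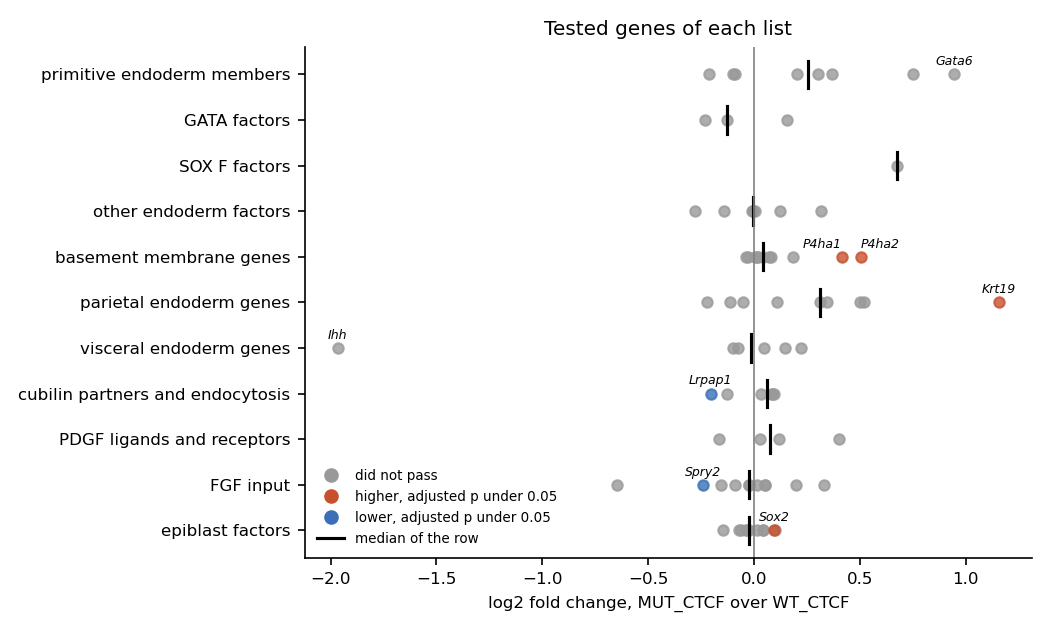
Log2 fold change of MUT_CTCF over WT_CTCF for each tested gene of the 9 and of the 10 lists. Orange and blue mark genes that passed an adjusted p under 0.05 as higher or lower, grey those that did not, and the black bar is the median of each list. Krt19, P4ha1, P4ha2 and Sox2 passed as higher, Lrpap1 and Spry2 as lower, and none of the 9 genes passed.

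Markers of other cells were read as sums over each list, which a few abundant genes dominate, and gene by gene. Summed over 8 markers of mESCs, the level was 6147 to 6187 CPM in WT_CTCF and 6158 to 6187 in MUT_CTCF, and 1 marker rose (Sox2) and 1 fell (Dppa5a). The call of Dppa5a held in 6 of the 12 alternatives, which include the fits with 1 library left out. Among those that lost it were the edgeR fit without a filter (adjusted p = 0.346), the exact test of edgeR (0.0826) and DESeq2 without independent filtering (0.0573). On all 4 libraries the settings tried gave 0.00272 to 0.346. With 1 library left out the log2 fold change of Dppa5a lay between -0.14 and -0.055. Pdgfra and Sparc are also known from fibroblasts, whose 10 markers, 6 of them tested, summed to 45.7 to 47.3 CPM in WT_CTCF and 47.0 to 52.8 in MUT_CTCF, the highest value being that of MUT_CTCF replicate 2. None of the 6 passed an adjusted p under 0.05, and Lum was at 0 in every library. Col3a1, a fibrillar collagen gene, met the study's criterion as lower, with 26 and 23 counts in WT_CTCF and 12 and 5 in MUT_CTCF (log2 fold change -1.52, adjusted p = 0.288 by edgeR), and was lowest in MUT_CTCF replicate 2. Of the other tested markers, Col1a2, Col6a1, Pdgfrb and Thy1 were highest in MUT_CTCF replicate 2 and Col1a1 in MUT_CTCF replicate 1. The part of fibroblasts in the Pdgfra value of MUT_CTCF replicate 2 was not tested. Gata4, Gata6 and Sox17 are also known from heart and definitive endoderm. The 8 markers of cardiac and lateral mesoderm summed to 17.5 to 19.1 CPM in WT_CTCF and 17.0 to 18.0 in MUT_CTCF, with 0 of 7 tested genes passing. The 8 markers of definitive endoderm and primitive streak summed to 25.9 to 28.4 and 25.6 to 26.2, with 0 of 6 passing and Cer1 at 0. Of 8 trophectoderm markers, which summed to 136.0 to 139.5 and 142.6 to 142.7 without overlap, none rose and Cdx2 fell, with a log2 fold change of -0.97 (adjusted p = 0.000227 by edgeR, 0.117 without a filter, all settings tried gave 1.13e-05 to 0.447).

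Because CTCF shapes contacts along a chromosome, the nearest tested gene on each side of every tested member was also read, 15 neighbours in all at distances of 4.196 to 1055.6 kb. Of the 15, 2 passed, beside 3.17% of all tested genes, and the median log2 fold change was -0.034. Neil2, a DNA repair glycosylase, lies 5.381 kb beyond the 3′ end of Gata4 on the same strand, and had 131 and 131 counts in WT_CTCF and 215 and 224 in MUT_CTCF. Both MUT_CTCF libraries of Neil2 were high, with a log2 fold change of 0.74 (SE 0.194, adjusted p = 0.0190 by edgeR), beside 0.30 for Gata4. Fat2, a cadherin of the FAT group, lies 57.9 kb from Sparc and had 201 and 187 counts in WT_CTCF and 306 and 273 in MUT_CTCF. The fit gave a log2 fold change of 0.57 (SE 0.164, adjusted p = 0.0373 by edgeR), beside -0.090 for Sparc, and neither Neil2 nor Fat2 passed with any 1 library left out, in DESeq2 without independent filtering (adjusted p = 0.0978 and 0.180) or without a filter (0.213 and 0.275). In all settings tried, the adjusted p ran from 0.0101 to 0.477 for Neil2 and from 0.0223 to 0.492 for Fat2. The neighbours of Gata6 were Mib1, 233.8 kb away with a log2 fold change of -0.17 (adjusted p = 0.249 by edgeR), and Rbbp8, 706.2 kb away with -0.21 (adjusted p = 0.481 by edgeR). Neither passed, and both values are opposite in sign to that of Gata6. Sox17 had 1 tested neighbour, Mrpl15, 276.8 kb away with -0.0021. Trdmt1, 17.1 kb from Cubn, had -0.42 (adjusted p = 0.212 by edgeR), and the remaining 9 neighbours did not pass.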

How the data were processed

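RNA-seq was available for 2 WT_CTCF and 2 MUT_CTCF libraries. Per the labels and the study's methods, the authors trimmed reads with Trim Galore 0.4.4, aligned them to mm9 with STAR at default settings, and counted uniquely mapped reads per gene with HTSeq 0.9.1. The authors deposited these counts without normalization. Counting with or without strand is not given in the sources used here, so reads of a gene and an overlapping gene on the other strand cannot be told apart. A deposited table of the authors' own edgeR comparison (fold changes, average levels, p-values and false discovery rates) was not used.

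Gene names, exon lengths, shared exon bases and neighbours came from GENCODE M1 (mm9), which named 37205 of 37620 identifiers. Libraries were scaled by TMM (factors 0.994 to 1.01) and genes filtered by filterByExpr (minimum count 10), which kept over 99.9% of counts. The test was glmQLFit and glmQLFTest on the condition (edgeR 4.0.16, R 4.3.3, common dispersion 0.00220), with Benjamini-Hochberg adjustment over 16264 genes. The standard error is the log2 fold change divided by the root of F. RPKM divides by total counts and by the union of annotated exons, which may be longer than the transcript used. Poisson intervals cover counting error only. The fits were tested on simulated counts.

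The 9 members and all lists were chosen with earlier results of these data known. Named genes are the members, from each list those at an adjusted p under 0.05 (at most 5, by p) or else the 2 with the smallest p, and each member's nearest tested gene on each side. One gene that this rule names is not reported here. Foxa2, Pdgfd, Apoa4, Lum, Cer1, Col1a1, Col1a2, Col6a1, Pdgfrb and the epiblast genes given by level were named outside that rule, after their values were seen. Replicate numbers are shared between lines without a stated pairing. The main results were recomputed with edgeR's exact test, DESeq2 1.42.0, other scalings and filters, the replicate number as a block, and 1 library left out at a time. DESeq2 without independent filtering was added after the data had been seen. Proteins and the promoters of Gata4, Gata6, Sox7 and Sox17 were not used here.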

Additional observations from a re-analysis of the deposited data

How the results depend on the processing

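No member passed an adjusted p under 0.05 in any of the 12 alternatives, and the smallest adjusted p among members was 0.0561, in edgeR's exact test. At the study's criterion the count of higher members, 0 in the analysis reported, ran from 0 to 2 with 1 library left out, and was 0 in every other alternative. DESeq2 gave an adjusted p for only 1 of the 8 members, Sparc, and without independent filtering for all 8, with a smallest value of 0.233. Among other lineage genes, the counts of 4 higher and 2 lower became 0 and 0 without a filter on low counts, where 0.122% of all genes passed, and ran from 0 to 3 and from 0 to 2 with 1 library left out. DESeq2 without independent filtering left 1 lower. A fit with 1 library in a line assumes that it varies like the other line.

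With 1 library left out, the log2 fold change changed sign for Pdgfra (-0.27 to 0.81) and Cubn (-1.04 to 0.68), and among other named genes for Mrpl15 (-0.028 to 0.023), Rsu1 (-0.046 to 0.074), Mesp1 (-0.17 to 4.42), R3hdml (-0.78 to 0.75), Ttpal (-0.042 to 0.058) and Ptger4 (-0.29 to 0.52). Scaling by library size only also turned Mrpl15 (0.010). No other setting reversed a member. The cause was not tested. Across tested genes, the deviations of samples with the same replicate number from the means of their lines had r = -0.0192. With 2 libraries a line, both pairs give this same value, so it cannot decide whether the replicates were paired. With a replicate block 0 members passed, and 698 genes did instead of 515. Members other than Sparc rest on at most 243 counts per library. The intervals of Gata4, Pdgfra, Dab2, Hnf4a and Cubn hold 0, so for these genes neither no change nor a change within the interval is excluded. Those of Gata6 (0.34 to 1.55) and Sox17 (0.085 to 1.42) lie above 0, but neither gene passed an adjusted p under 0.05. How far the depth limits these results was not tested.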
